A study of Rattus norvegicus with 12 samples.

Results

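The 41 genes described here encode the machinery of autophagy and the lysosome: the kinases and lipid-handling proteins that start an autophagosome, the ubiquitin-like proteins that coat it, the receptors that load it, the membrane proteins and cathepsins of the lysosome, and the transcription factors TFEB and TFE3. They were taken by symbol from the gene table of an RNA-seq study of rat skeletal muscle. All 41 had a row among the 24648 of the table, and all 41 were among the 14225 genes with enough counts to be tested. The rats were males aged 540 days. The restriction groups were born to dams fed a diet with 6% protein during gestation and lactation, and the control groups to dams on a control diet. In the sources used here, the protein content of that diet, the strain and the feeding of the offspring after weaning are not given. The 12 libraries fell into 2 sets by the number in their titles, with 3 libraries in each group: set 2 restriction (32, 33 and 35), set 2 control (23, 28 and 29), set 1 restriction (12, 13 and 15) and set 1 control (3, 8 and 9). The series took the soleus, a slow oxidative muscle, and the extensor digitorum longus, a fast glycolytic one, but the labels do not say which muscle a library came from, and the sets are named by number.

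Autophagy delivers cytoplasm to the lysosome for breakdown. The ULK kinases and the Beclin 1 lipid kinase complex open the process, ATG9A vesicles and the WIPI proteins supply and mark the growing membrane, and the ATG conjugation enzymes attach LC3 and GABARAP proteins to it. Receptors such as p62, the product of Sqstm1, and BNIP3 bind cargo on one side and LC3 or GABARAP on the other, and fusion with the lysosome exposes the cargo to cathepsins. TFEB and TFE3 activate many of these genes through a short promoter element. In skeletal muscle autophagy clears damaged mitochondria and protein aggregates, and it is induced by fasting and by disuse.

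Library totals lay between 29288433 and 31342247 counts in set 2 restriction, 22869995 and 30146567 in set 2 control, 22829692 and 26037169 in set 1 restriction, and 26506707 and 38313704 in set 1 control. Each member was covered by at least 38 counts in every library, the lowest being Ctsk. Skeletal muscle markers (Ckm, Acta1, Ttn, Des and Mb) summed to between 95400 and 147000 CPM (counts scaled by library size) in all groups. Slow-fibre markers (7 genes, Myh7 among them) summed to 1520 to 5000 CPM in set 2 and 83900 to 98400 CPM in set 1, and fast-fibre markers (9 genes) to 136000 to 172000 CPM in set 2 and 3250 to 9020 CPM in set 1. Control 23 had the lowest scaling factor, 0.815 against 0.968 to 1.10 elsewhere, and stood apart from its group for several members, as given below. The labels name no animal, dam or litter, so p-values reflect the variation among these libraries alone, and that variation may be technical. These are bulk samples, in which fewer cells of a type and less RNA per cell cannot be told apart.

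Set 2 against set 1 was the comparison in which these genes differed. Averaged over both diets, 12 of the 41 were higher in set 2, 5 were lower and 24 did not pass (edgeR quasi-likelihood test, adjusted p under 0.05 over all 14225 genes). That is 41.5% of the members, against 39.5% of all genes tested. By direction, 29.3% of members were higher against 19.9% of all genes, and 12.2% were lower against 19.6%. With library size alone as scaling, which moved the median of all genes to -0.115 on the log2 scale from -0.00748, the split of the members was 8 higher and 6 lower. Without control 23 it was 15 higher and 6 lower. The counts over all genes rose too, to 3159 higher and 3291 lower of 14637 tested, from 2832 and 2788 of 14225. Every set 2 library was above every set 1 library for 4 members, against 8.97% of all genes, and below every one for 3, against 9.77%. The median absolute log2 difference was 0.333 among members and 0.458 among all genes, and 3 members (7.32%) passed and differed at least 2-fold, against 17.8% of all genes. Members and all genes were not matched for level of expression. By role, 3 of 6 initiation genes, 2 of 10 elongation genes, 2 of 5 LC3 and GABARAP genes, 2 of 3 cargo receptors, 1 of 5 lysosomal membrane and tethering genes, 1 of 6 cathepsins and 1 of 2 regulators were higher. Those lower were 1 of 5 LC3 and GABARAP genes, 1 of 4 mitophagy genes and 3 of 6 cathepsins.

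**Figure D1:**
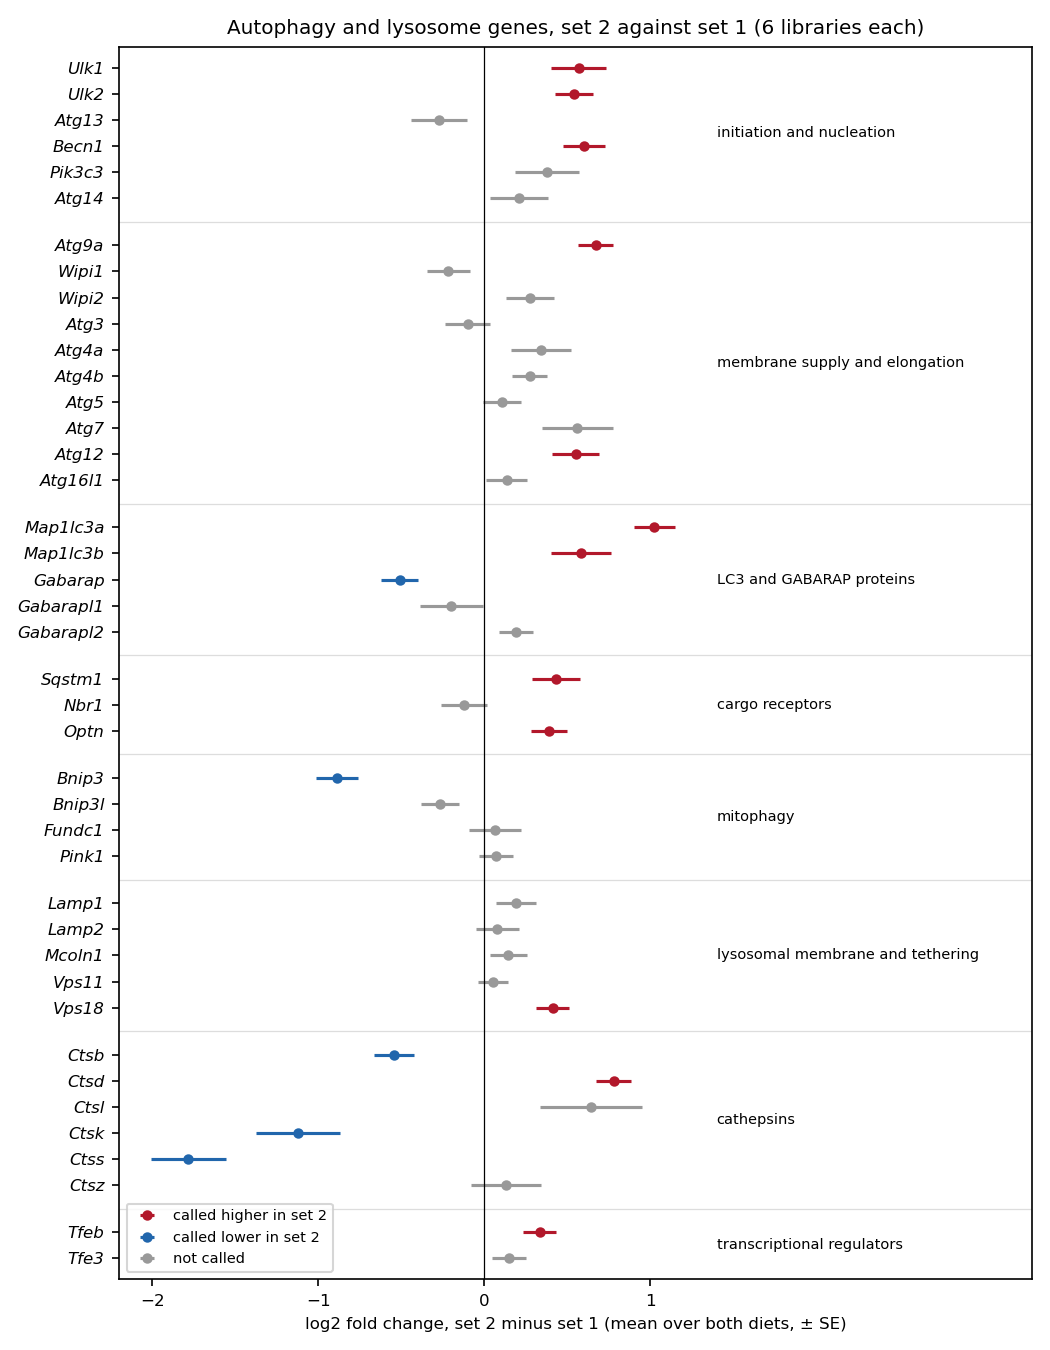
Log2 fold change of each of the 41 genes, set 2 minus set 1 averaged over both diets (x axis, points with bars of 1 SE, 6 libraries a set), by role group from top to bottom. Red points are the 12 genes called higher in set 2, blue points the 5 called lower and grey points the 24 not called; Ctss at -1.78 and Map1lc3a at 1.03 mark the ends.

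The regulators come first. Tfeb, which encodes the master activator of lysosomal genes, measured 121, 113 and 112 CPM in set 2 restriction libraries and 123, 116 and 99.8 CPM in set 2 controls. In set 1 it measured 116, 92.0 and 93.1 CPM in restriction libraries and 87.7, 79.9 and 78.1 CPM in controls. All set 1 libraries but restriction 12 lay below all set 2 libraries. The log2 fold change was 0.33 ± 0.10 (SE, edgeR adjusted p = 0.0166), a 1.26-fold higher level in set 2, and Tfeb was not called with library size alone as scaling. Tfe3, its relative with the same binding element, ran from 34.8 to 45.0 CPM in set 2 and from 30.9 to 43.2 CPM in set 1 and did not pass (0.15 ± 0.10, edgeR adjusted p = 0.274).

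TFEB and TFE3 bind the E-box CACGTG, and the CLEAR core TCACGTGA contains it. Both read the same on either strand. RefSeq promoters (250 bases before to 50 after the annotated start, build GRCr8, whereas the counts were made on Rnor_6.0) were found for 35 of the 41 members. Becn1, Atg9a, Map1lc3a, Bnip3l, Fundc1 and Ctsb had no entry. CACGTG was present in 9 of the 35 (25.7%), against 6.42% of 33469 promoters in the table and 8.77% of the 11559 promoters of tested genes. TCACGTGA was present in 5 of 35 (14.3%), against 0.777% and 1.56%. At least 2 copies of CACGTG were present in 6 of 35 (17.1%), against 0.52% and 0.943%. GTAAACA, the forkhead motif of FOXO factors, searched on both strands, was in 0 of 35, against 3.78% and 2.5%. Promoters of the further pathway gene lists described below held CACGTG in 17.4% and TCACGTGA in 7.83%. They held at least 2 copies of CACGTG in 2.61% and GTAAACA in 3.48%. For CACGTG and TCACGTGA these shares lay between those of the members and those of the tested genes. A match is a description of these letters and not of a bound site.

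The promoters that carry the CLEAR core, which contains the E-box that TFEB and TFE3 bind, are printed below. Bnip3 is beside them as the one member lower in set 2, of those with an entry, whose promoter holds an E-box. Whether TFEB acts on these genes in this muscle was not tested. Capitals mark TCACGTGA, or CACGTG where the flanking bases differ. The sequences run 5′ to 3′ on the strand of the gene and end before the annotated start except for Mcoln1 and Vps11, which run past it. In order, they lie at chr1:206968822-206969071 (minus strand), chr16:83075064-83075263 (minus), chr12:6358208-6358277 (plus), chr11:69159281-69159340 (minus), chr8:53595368-53595437 (minus) and chr1:203155023-203155082 (minus) of GRCr8.
Ctsd: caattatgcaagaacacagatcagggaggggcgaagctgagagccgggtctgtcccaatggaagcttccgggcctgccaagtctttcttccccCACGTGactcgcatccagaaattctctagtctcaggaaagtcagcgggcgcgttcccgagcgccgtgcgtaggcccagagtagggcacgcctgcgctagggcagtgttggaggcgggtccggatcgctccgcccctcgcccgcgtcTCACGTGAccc
Lamp1: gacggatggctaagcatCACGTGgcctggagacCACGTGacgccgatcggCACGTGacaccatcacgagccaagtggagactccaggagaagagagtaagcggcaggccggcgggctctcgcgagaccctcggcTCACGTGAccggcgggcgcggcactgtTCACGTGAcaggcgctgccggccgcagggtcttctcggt
Mcoln1: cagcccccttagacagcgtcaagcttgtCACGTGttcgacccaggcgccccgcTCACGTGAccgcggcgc
Atg3: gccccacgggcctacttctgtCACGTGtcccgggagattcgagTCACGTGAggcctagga
Vps11: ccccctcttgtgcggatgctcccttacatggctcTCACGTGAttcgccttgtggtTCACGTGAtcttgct
Bnip3: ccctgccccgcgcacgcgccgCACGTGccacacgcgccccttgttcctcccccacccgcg

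Members with these letters did not move as one between the sets. Ctsd, with 2 E-boxes of which 1 is a CLEAR core, was higher in set 2 by 0.78 ± 0.11 in log2 units (SE, edgeR adjusted p = 5.6e-05). Bnip3, with 1 E-box, was lower at -0.89 ± 0.13 (edgeR adjusted p = 7.71e-05). The other 7 did not pass: Lamp1, with 5 E-boxes of which 2 are cores, was at 0.19 ± 0.12, Mcoln1 at 0.14 ± 0.11, Vps11 at 0.05 ± 0.09, Atg3 at -0.10 ± 0.13, Atg14 at 0.21 ± 0.18, Atg5 at 0.10 ± 0.12 and Pink1 at 0.07 ± 0.10.

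**Figure D2:**
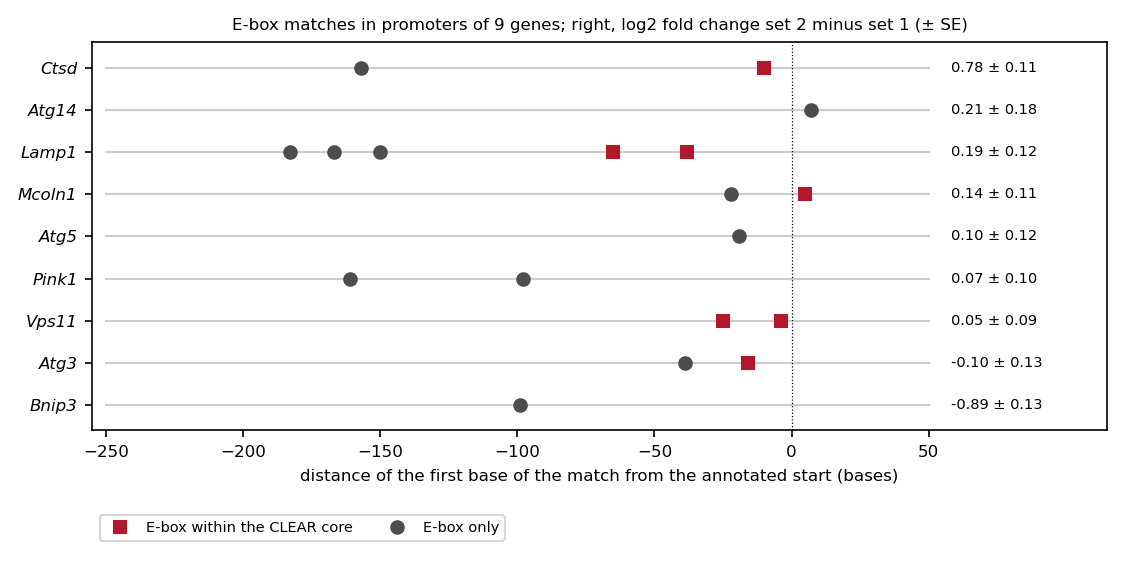
Position of each CACGTG match in the 9 member promoters that hold one (x axis, bases from the annotated start; y axis, gene, ordered by fold change). Red squares are matches within TCACGTGA, grey circles are other CACGTG matches, and the text at the right gives each log2 fold change, set 2 minus set 1, with its SE. Lamp1 holds 5 matches, and the called genes, Ctsd and Bnip3, stand at the top and the bottom.

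Initiation genes with a call were all higher in set 2. Ulk1, the kinase that mTORC1 and AMPK act on, measured 108, 88.5 and 103 CPM in set 2 restriction libraries and 55.2, 133 and 95.5 CPM in set 2 controls, against 83.8, 70.3 and 68.8 CPM in set 1 restriction libraries and 55.6, 55.4 and 61.9 CPM in set 1 controls. Control 23, at 55.2 CPM, lay below every set 1 library, and the other set 2 libraries lay above all of set 1. The log2 fold change was 0.57 ± 0.17 (SE, edgeR adjusted p = 0.0144), and the call was lost with library size alone as scaling. For Ulk2, its close relative, the set 2 values were 66.7, 72.1 and 67.6 CPM in restriction libraries and 44.7, 57.9 and 59.7 CPM in controls. The set 1 values were 38.5, 49.1 and 48.0 CPM in restriction libraries and 39.1, 33.5 and 44.2 CPM in controls. Control 23 alone lay within the set 1 range, and Ulk2 was 1.45-fold higher in set 2 (0.54 ± 0.11, edgeR adjusted p = 0.00178).

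Becn1, which encodes Beclin 1, the scaffold of the lipid kinase complex, measured 49.3, 50.7 and 44.5 CPM in set 2 restriction libraries and 33.9, 45.1 and 53.9 CPM in set 2 controls. In set 1 it was at 28.4, 31.0 and 21.7 CPM in restriction libraries and 32.3, 35.6 and 35.4 CPM in controls. The same library, control 23, was the only one of set 2 to overlap set 1. The level in set 2 was 1.52-fold higher (0.60 ± 0.13, edgeR adjusted p = 0.00194). Its partners in the complex did not pass, with Pik3c3, the lipid kinase itself, at 0.38 ± 0.19 and Atg14 at 0.21 ± 0.18. Atg13, an adaptor of the ULK complex, had a value below 0 (-0.27 ± 0.17, edgeR adjusted p = 0.22) that missed the threshold too.

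Of the genes for membrane supply and elongation, Atg9a and Atg12 were higher in set 2. Atg9a encodes the lipid scramblase whose vesicles seed the membrane. It measured 235, 217 and 233 CPM in set 2 restriction libraries and 201, 238 and 214 CPM in set 2 controls, against 163, 120.4 and 121 CPM in set 1 restriction libraries and 148, 152 and 137 CPM in set 1 controls. The sets did not overlap, and Atg9a was 1.59-fold higher in set 2 (0.67 ± 0.11, edgeR adjusted p = 0.000187). Atg12, the ubiquitin-like partner of ATG5, was at 22.0, 25.1 and 16.5 CPM in set 2 restriction libraries and 19.2, 20.6 and 27.7 CPM in set 2 controls, against 18.3, 13.8 and 16.1 CPM and 14.7, 12.4 and 14.5 CPM in the restriction and control libraries of set 1. Restriction 35 was the one set 2 library within the range of set 1, and the difference passed (0.55 ± 0.14, edgeR adjusted p = 0.00692).

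The conjugation enzymes themselves did not pass. Atg7, the E1-like enzyme that activates both ubiquitin-like systems, stood just outside at 0.56 ± 0.21 (edgeR adjusted p = 0.0504). Its value was 0.349 without restriction 32. It was called without control 23 or restriction 35, by DESeq2 and with no filter on low counts. Atg4b, the main LC3 protease, was at 0.27 ± 0.11 (edgeR adjusted p = 0.0551) and was called without control 8 and by limma-voom. Atg4a, Atg5, Atg3, Atg16l1, Wipi1 and Wipi2 ran from -0.22 (Wipi1) to 0.34 (Atg4a) on the log2 scale.

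The LC3 and GABARAP genes went in both directions. Map1lc3a, which encodes LC3A, measured 396, 307 and 399 CPM in set 2 restriction libraries and 435, 407 and 339 CPM in set 2 controls. In set 1 it measured 242, 189.9 and 188 CPM in restriction libraries and 143, 193 and 171 CPM in controls. No library of one set entered the range of the other, and Map1lc3a was 2.04-fold higher in set 2 (1.03 ± 0.12, edgeR adjusted p = 1.91e-05), the largest increase among the members. Map1lc3b, for LC3B, the usual marker of autophagosomes, was at 574, 313 and 459 CPM in set 2 restriction libraries and 372, 615 and 567 CPM in set 2 controls, against 459, 282 and 289.8 CPM and 251, 321 and 330.3 CPM in set 1 restriction and control libraries. The sets overlapped, with restriction 33 low in set 2 and restriction 12 high in set 1. The difference passed (0.58 ± 0.18, edgeR adjusted p = 0.0197) but was lost without control 28.

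Gabarap, which encodes a protein acting mainly late in autophagosome closure and fusion, was lower in set 2. It measured 155, 156 and 146 CPM in set 2 restriction libraries and 233, 163 and 164 CPM in set 2 controls, against 282, 284 and 235 CPM in set 1 restriction libraries and 210.1, 219 and 219.6 CPM in set 1 controls. Control 23 was the one set 2 library inside the set 1 range, and the log2 fold change was -0.51 ± 0.11 (SE, edgeR adjusted p = 0.0023). Gabarapl1 at -0.20 ± 0.19 and Gabarapl2 at 0.19 ± 0.10 did not pass. These 5 genes are paralogs, and how reads that match more than one of them were counted is not given in the sources used here.

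**Figure D3:**
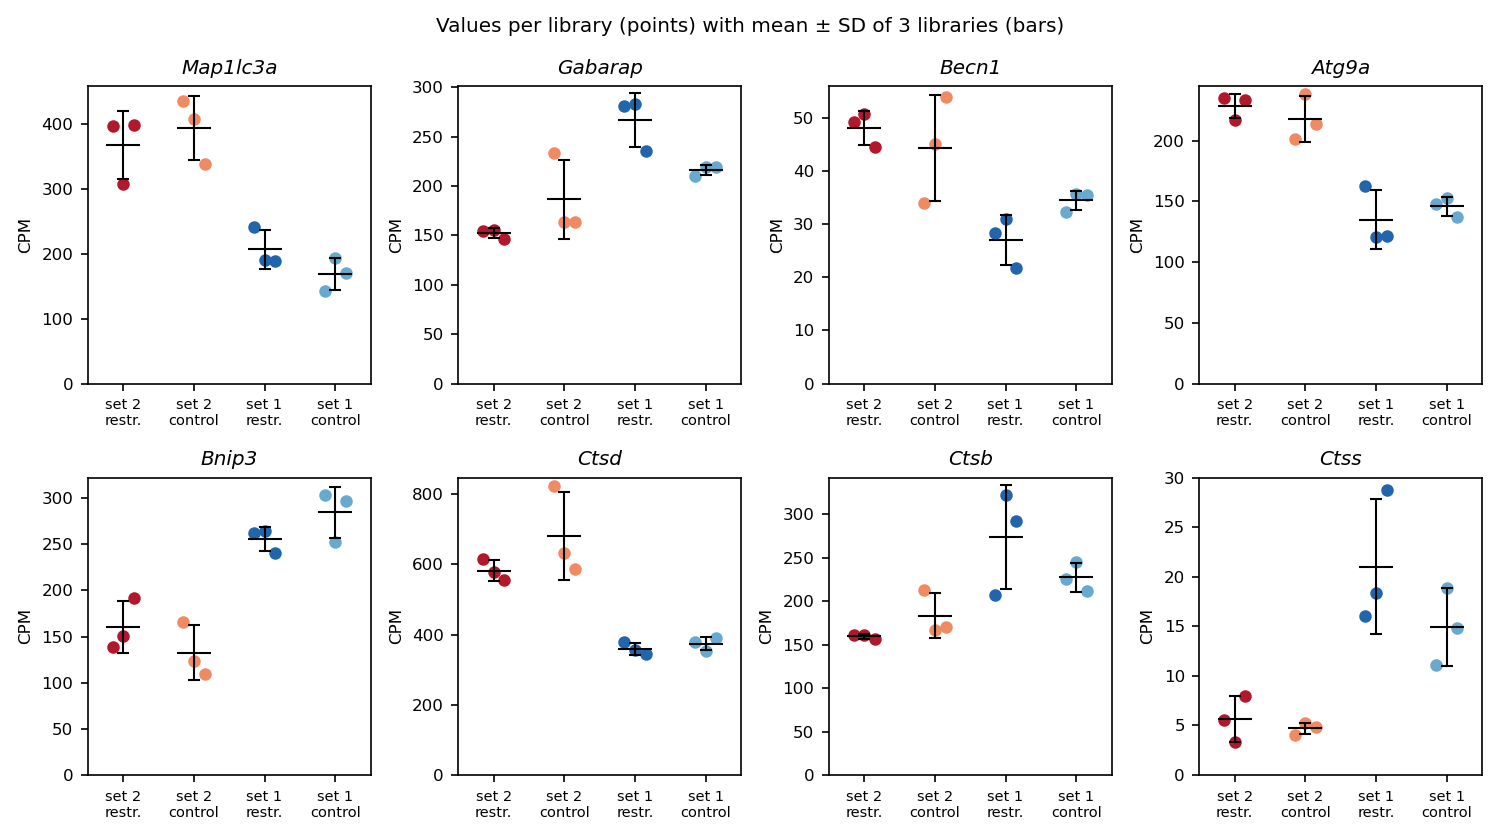
TMM-scaled CPM of 8 members in each library (y axis, linear from 0), for set 2 restriction, set 2 control, set 1 restriction and set 1 control from left to right. Points are libraries and bars are the mean ± SD of 3 libraries; Map1lc3a, Atg9a and Ctsd lie higher and Bnip3 and Ctss lower in set 2 with no overlap, while Gabarap, Becn1 and Ctsb overlap through control 23.

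Cargo receptors that passed were higher in set 2. Optn encodes optineurin, a receptor for ubiquitin-tagged mitochondria and bacteria. Its values were 214, 262 and 265 CPM in set 2 restriction libraries and 194, 263 and 253 CPM in set 2 controls, against 162, 157 and 151 CPM in set 1 restriction libraries and 195, 225 and 235 CPM in set 1 controls. The set 1 restriction libraries lay below all of set 2, whereas the set 1 controls overlapped restriction 32 and control 23. The log2 fold change was 0.39 ± 0.11 (SE, edgeR adjusted p = 0.0116), lost with library size alone as scaling. Sqstm1, for p62, ran from 648 to 1126 CPM in set 2 and from 495 to 799 CPM in set 1 (0.43 ± 0.14, edgeR adjusted p = 0.0286). With 1 library left out in turn the call was lost in 5 of 12 fits, and also with library size alone. Nbr1, a receptor that works with p62, did not pass (-0.12 ± 0.14).

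Of the mitophagy genes Bnip3 alone passed, and it was lower in set 2. Bnip3 encodes a receptor on the mitochondrial surface that is induced by low oxygen. It measured 139, 151 and 192 CPM in set 2 restriction libraries and 166, 123 and 109 CPM in set 2 controls, against 262, 265 and 241 CPM in set 1 restriction libraries and 303, 253 and 297 CPM in set 1 controls. The sets were apart in all libraries, with a 1.85-fold higher level in set 1. Its relative Bnip3l did not pass over both diets (-0.27 ± 0.11, edgeR adjusted p = 0.073). Fundc1 (0.06 ± 0.16) and Pink1 (0.07 ± 0.10), the kinase that marks damaged mitochondria, were within 1 SE of 0, and Pink1 ran from 857 to 928 CPM in set 2 and from 719 to 946 CPM in set 1.

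Lysosomal membrane and tethering genes varied little. Vps18, a core subunit of the HOPS and CORVET tethering complexes, was at 25.2, 24.9 and 22.7 CPM in set 2 restriction libraries and 23.3, 22.2 and 23.4 CPM in set 2 controls, against 17.4, 18.6 and 17.1 CPM in set 1 restriction libraries and 17.0, 16.8 and 19.5 CPM in set 1 controls. The sets did not overlap, and Vps18 was 1.33-fold higher in set 2 (0.41 ± 0.10, edgeR adjusted p = 0.0044). Vps11, another core subunit of the same complexes, was at 0.05 ± 0.09. Lamp1 (0.19 ± 0.12) and Lamp2 (0.08 ± 0.13), the main glycoproteins of the lysosomal membrane, and Mcoln1 (0.14 ± 0.11), its calcium channel, did not pass.

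The cathepsins moved in both directions. Ctsd, the aspartic protease of most lysosomes, measured 615, 577 and 554 CPM in set 2 restriction libraries and 823, 633 and 587 CPM in set 2 controls. In set 1 it measured 379, 355 and 344 CPM in restriction libraries and 379, 354 and 390.2 CPM in controls. Every set 2 library was above every set 1 library, and the level was 1.72-fold higher in set 2. Ctsl, a cysteine protease, had a value of the same sign but a wide spread (0.64 ± 0.31, edgeR adjusted p = 0.114), and Ctsz did not pass (0.13 ± 0.21).

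Ctss, Ctsk and Ctsb were lower in set 2. Ctss, the cathepsin of antigen-presenting cells, was at 5.57, 3.33 and 7.97 CPM in set 2 restriction libraries and 4.08, 5.20 and 4.80 CPM in set 2 controls, against 16.03, 18.3 and 28.7 CPM in set 1 restriction libraries and 11.1, 18.9 and 14.9 CPM in set 1 controls. With no overlap, it was 3.44-fold higher in set 1 (-1.78 ± 0.23, edgeR adjusted p = 2.85e-05). Ctsk, the collagen-cleaving cathepsin of osteoclasts and fibroblasts, was at 2.85, 2.37 and 2.29 CPM and at 2.04, 1.60 and 3.97 CPM in set 2 restriction and control libraries, against 4.32, 5.76 and 6.02 CPM and 7.70, 4.51 and 4.74 CPM in set 1 restriction and control libraries. It did not overlap either (-1.12 ± 0.25, edgeR adjusted p = 0.00289). Ctsb, a cysteine protease found in most cells, was at 161, 161 and 156 CPM in set 2 restriction libraries and 213, 167 and 171 CPM in set 2 controls, against 207, 322 and 292 CPM in set 1 restriction libraries and 226, 245 and 212 CPM in set 1 controls. Control 23 was the only set 2 library in the set 1 range (-0.54 ± 0.12, edgeR adjusted p = 0.00249).

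Markers of other cells moved with these cathepsins. All 10 macrophage markers tested were lower in set 2, and their summed level ran from 64.7 to 137 CPM in set 2 and from 237 to 575 CPM in set 1. Of 8 fibroblast and fibro-adipogenic progenitor markers 7 were lower, with sums of 271 to 390 CPM in set 2 and 483 to 911 CPM in set 1. All 5 adipocyte markers were lower, with sums of 15.5 to 29.3 CPM in set 2 and 77.1 to 261 CPM in set 1. Endothelial markers went the other way, 4 of 5 being higher, with sums of 195 to 270 CPM in set 2 and 126 to 191 CPM in set 1. Osteoclast markers were near 0, with sums up to 0.965 CPM in set 2 and 2.92 CPM in set 1 and Dcstamp at 0 in all 12 libraries. Within set 1, restriction 13 and restriction 15 had the highest macrophage sums, 506 and 575 CPM, and the highest values of Ctsb and of Ctsz (29.1 and 28.4 CPM, against 12.7 to 18.1 CPM in the other set 1 libraries). In set 2 it was otherwise, since control 23 had the highest Ctsb (213 CPM) and Ctsz (31.2 CPM) of that set with a macrophage sum of 65.5 CPM, next to the lowest. The part of these cells, and of the slow and fast fibres, in the differences above was not tested.

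Taken within each diet, the set difference was found for fewer members. Among restriction libraries 7 members were higher and 6 lower in set 2, against 30% of all genes called, 15% in each direction. Among controls 8 were higher and 3 lower, against 20.8% of all genes, 10.4% in each direction. The 2 comparisons share no library, though 1 fit estimated the spread for both. The 7 members called in the same direction in both were Ulk2, Atg9a, Map1lc3a, Ctsd, Bnip3, Ctsk and Ctss. They were 53.8% of the members called among restriction libraries and 63.6% of those called among controls, beside 51.6% and 74.5% over all genes. The sign was shared by 32 members (78%), beside 76.2% of all genes. Of the 7 members called in both, Ulk2 lost its call among controls in 9 of 12 fits that left out 1 library. Ctsk lost its call in 6 of 12 among controls and 5 of 12 among restriction libraries, and Atg9a in 2 of 12 among controls. Among restriction libraries Ulk2 lost its call without restriction 12 and with library size alone, and Bnip3 without restriction 32. Among controls the count is fragile, since 3 were higher when the set 2 and set 1 controls were fitted alone and 2 with library size alone. Over all genes the count higher fell too, to 923 of 13382 in the first of these fits and 906 of 14225 in the second. The main fit had 1478 of 14225. Ulk1, Atg12, Map1lc3b and Tfeb were called among controls and not among restriction libraries. Ulk1 was at 0.71 ± 0.24 among controls and at 0.388 without control 28. Ulk1 kept its call among controls in 2 of 12 fits that left out 1 library, Map1lc3b in 6, Tfeb in 8 and Atg12 in 9.

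Becn1, Gabarap, Optn, Bnip3l, Vps18 and Ctsb passed among restriction libraries and not among controls. When 1 library was left out, Vps18 kept its call among restriction libraries in 7 of 12 fits and Bnip3l in 8 of 12. The other members named kept theirs in all 12. Vps18 also lost its call with library size alone and with no filter on low counts. Among controls, Gabarap, then at -0.414, and Becn1 were called when control 23 was left out. Gabarap was also called among controls with library size alone. Gabarap was at -0.81 ± 0.16 among restriction libraries (edgeR adjusted p = 0.00178) and at -0.21 ± 0.16 among controls (edgeR adjusted p = 0.381). Optn was at 0.66 ± 0.15 (edgeR adjusted p = 0.00567) and at 0.12 ± 0.15 (edgeR adjusted p = 0.654). Bnip3l, the receptor that clears mitochondria from maturing red cells, was at -0.56 ± 0.16 (edgeR adjusted p = 0.0161) and at 0.03 ± 0.16 (edgeR adjusted p = 0.919). The test of the difference between the diets is the interaction, which no member passed.

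The design's other question was the effect of the maternal diet. None of the 41 members passed, averaged over both sets, in set 2 or in set 1, by edgeR, DESeq2 or limma-voom. Over all genes edgeR called 0.00703% on average and in set 1 (1 gene each) and 0% in set 2. The all-gene count depended on the method. Of 14225 genes DESeq2 called 22 higher and 33 lower on average, 19 and 19 in set 2, and 12 and 26 in set 1. By limma-voom these were 0 and 0, 0 and 0, and 0 and 3. At an unadjusted p under 0.05 there were 3 members on average (7.32%, against 7.83% of all genes), 2 in set 2 (4.88%, against 8.59%) and 2 in set 1 (4.88%, against 7.54%). The values of 37 members averaged over both sets, 38 in set 2 and 37 in set 1 lay within 2 SE of 0. The median SE was 0.127 on the log2 scale averaged over both sets, 0.179 in set 2 and 0.181 in set 1. A p that misses the threshold does not show equal levels. Genes are given below by the smallest p in each direction, and none of them passed.

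**Figure D4:**
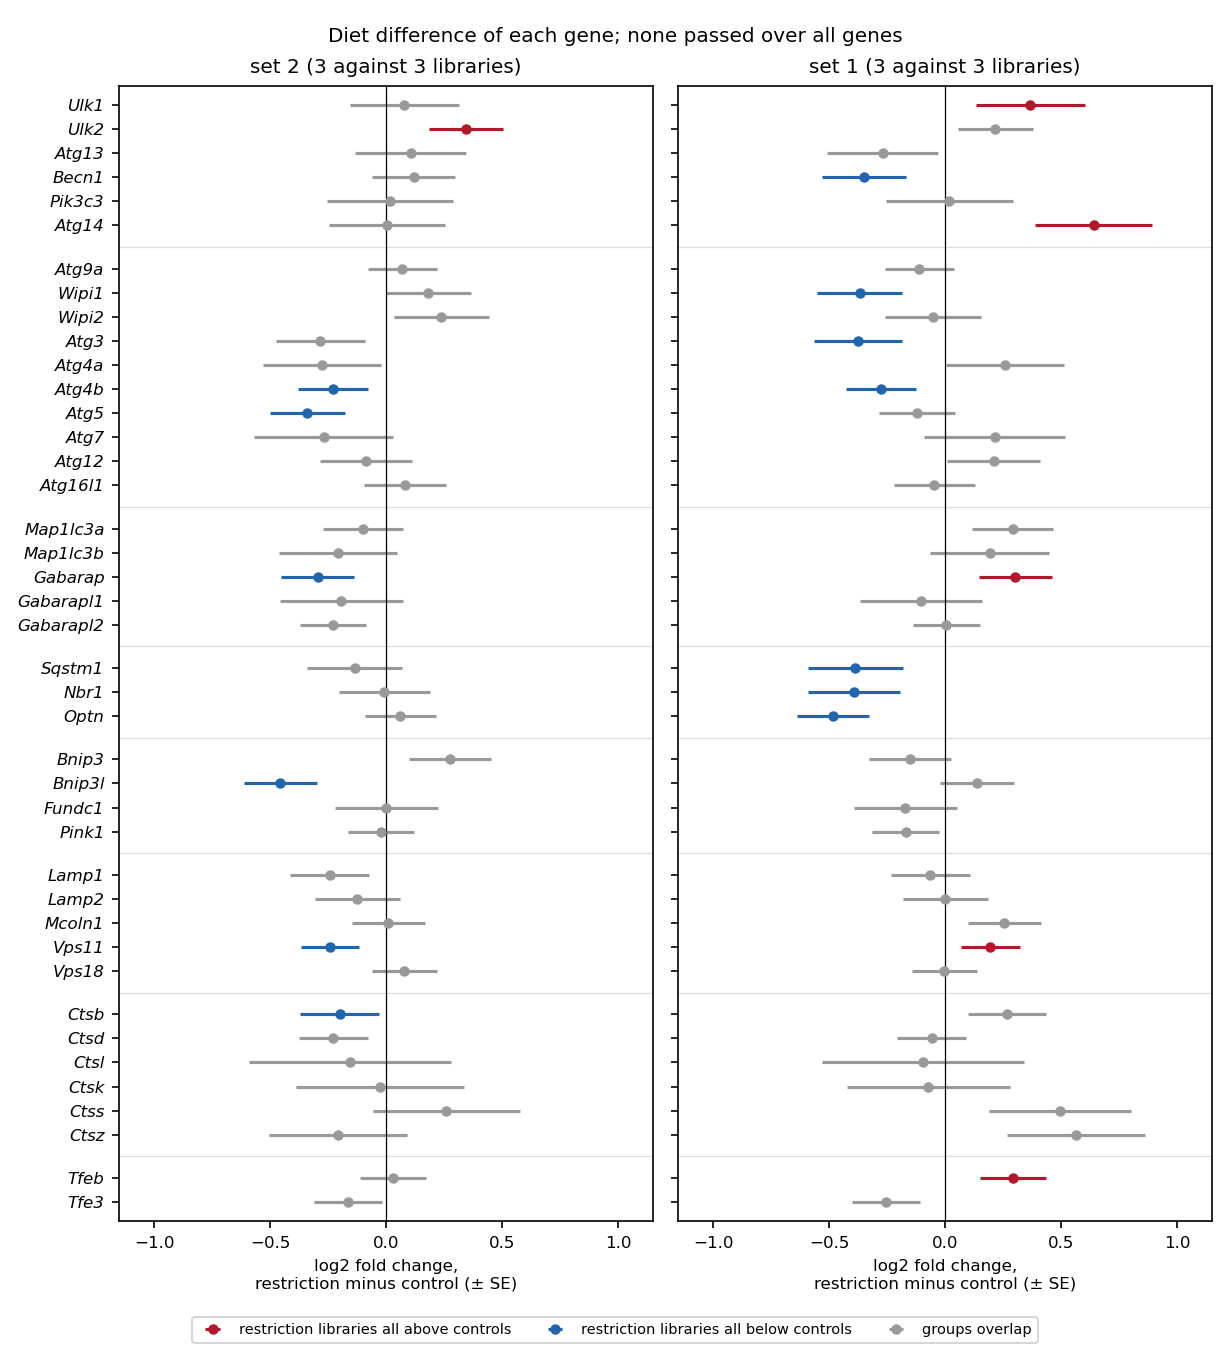
Log2 fold change of each of the 41 genes, restriction minus control (x axis, points with bars of 1 SE), in set 2 (left) and set 1 (right), 3 libraries against 3 in each panel. Red marks genes with all restriction libraries above all controls (1 in set 2, 5 in set 1), blue those with all below (6 in set 2, 7 in set 1) and grey those that overlap; Gabarap and Vps11 are red in set 1 and blue in set 2.

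Averaged over both sets, the smallest p among higher values belonged to Ulk2 at 0.28 ± 0.11 (edgeR adjusted p = 0.568), Atg14 at 0.32 ± 0.18 and Ctss at 0.38 ± 0.22. Atg14 was at 0.206 without restriction 12, and Ctss at 0.209 without restriction 35. Among lower values they were Atg3, Atg4b and Tfe3. Atg3, the E2-like enzyme that attaches LC3 to lipid, measured 21.0, 17.0 and 15.0 CPM in set 2 restriction libraries against 18.3, 24.0 and 22.2 CPM in set 2 controls. In set 1 it measured 21.9, 18.6 and 14.5 CPM in restriction libraries against 22.0, 25.6 and 23.9 CPM in controls. The groups overlapped in set 2 and were apart in set 1, where restriction 12 and control 3 nearly met, and the mean difference was -0.33 ± 0.13 (edgeR adjusted p = 0.57).

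Atg4b was the one member with every restriction library below every control in both sets. It measured 27.4, 25.5 and 26.6 CPM in set 2 restriction libraries against 33.9, 29.8 and 29.5 CPM in set 2 controls, and 21.6, 22.7 and 20.4 CPM in set 1 restriction libraries against 23.6, 31.1 and 23.8 CPM in set 1 controls. This pattern, in either direction, was found in 2.44% of the members and 0.801% of all genes. The mean difference was -0.25 ± 0.11 (edgeR adjusted p = 0.583), and in set 1 the value was -0.28 ± 0.15, or -0.137 without control 8. Tfe3 was at -0.21 ± 0.10 (edgeR adjusted p = 0.657), with 43.8, 34.8 and 37.2 CPM in set 2 restriction libraries against 41.2, 43.5 and 45.0 CPM in set 2 controls, and 35.6, 34.7 and 30.9 CPM against 34.6, 43.0 and 43.2 CPM in set 1. Its groups overlapped in both sets.

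In set 2, 1 member had all restriction libraries above the controls, against 7.01% of all genes, and 6 had all of them below, against 5.72%. The first was Ulk2, whose values are given above (0.34 ± 0.16, edgeR adjusted p = 0.58, and 0.228 without control 23). Bnip3l measured 53.4, 48.3 and 49.95 CPM in restriction libraries against 83.1, 61.7 and 63.2 CPM in controls. All 3 restriction libraries were lower and control 23 stood highest, with a difference of -0.46 ± 0.16 (edgeR adjusted p = 0.536). Atg5, the E3-like partner of ATG12, measured 15.9, 15.4 and 18.0 CPM in restriction libraries against 19.5, 19.2 and 23.7 CPM in controls, without overlap (-0.34 ± 0.16, edgeR adjusted p = 0.585). Vps11 measured 39.3, 36.3 and 34.0 CPM against 44.0, 42.3 and 43.3 CPM, also without overlap (-0.24 ± 0.13, edgeR adjusted p = 0.599). Gabarap, Atg4b and Ctsb were the other 3. Without control 23 the set 2 value of Gabarap was -0.10, against -0.29 with it.

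The remaining set 2 values with a small p among higher ones were Bnip3 and Wipi2. Bnip3 was at 0.28 ± 0.18 (edgeR adjusted p = 0.649), and at 0.134 without restriction 35, the highest of its group. Wipi2, which recruits the ATG16L1 complex to the membrane, measured 27.2, 18.8 and 21.3 CPM in restriction libraries against 16.4, 19.2 and 21.3 CPM in controls. Its groups overlapped, and its value of 0.24 ± 0.21 (edgeR adjusted p = 0.735) was 0.0766 without restriction 32.

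In set 1, 5 members had all restriction libraries above the controls, against 7.97% of all genes, and 7 had all of them below, against 9.6%. All 3 cargo receptors were among the 7. Optn, whose values are given above, was at -0.48 ± 0.15 (edgeR adjusted p = 0.528). Nbr1 measured 71.3, 62.8 and 66.7 CPM in restriction libraries against 88.4, 83.7 and 91.6 CPM in controls (-0.39 ± 0.20, edgeR adjusted p = 0.666). Sqstm1, described here after its values were seen, measured 646, 495 and 580.2 CPM against 729.8, 723 and 799 CPM (-0.39 ± 0.20, edgeR adjusted p = 0.677). In set 2 the same receptors overlapped between the diets, at 0.06 ± 0.15 for Optn, -0.01 ± 0.20 for Nbr1 and -0.14 ± 0.20 for Sqstm1, each of which changed sign when some single library was left out. The interaction for Optn was 0.54 ± 0.22 (edgeR adjusted p = 0.492).

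Wipi1, a lipid-binding protein of the early membrane, measured 50.5, 56.9 and 64.9 CPM in set 1 restriction libraries against 84.8, 69.8 and 67.8 CPM in set 1 controls. The groups were apart, by a narrow gap between restriction 15 and control 9 (-0.37 ± 0.18, edgeR adjusted p = 0.663), and the interaction was 0.55 ± 0.26 (edgeR adjusted p = 0.526). Atg14, which directs the Beclin 1 complex to autophagy, measured 11.9, 7.76 and 7.90 CPM in set 1 restriction libraries against 5.48, 7.53 and 4.68 CPM in set 1 controls. Restriction 12 was the highest, and the value of 0.64 ± 0.25 (edgeR adjusted p = 0.591) was 0.411 without it. Tfeb, with the same highest library, was at 0.29 ± 0.14 (edgeR adjusted p = 0.65) and 0.176 without restriction 12. Gabarap was at 0.30 ± 0.16 (edgeR adjusted p = 0.668). Becn1, below in all 3 restriction libraries of set 1, had an interaction of 0.47 ± 0.25 (edgeR adjusted p = 0.57), or 0.311 without control 23.

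No member passed the interaction, which asks whether the diet difference of set 2 departs from that of set 1, nor did any gene (0% called by edgeR). At an unadjusted p under 0.05 there were 4 members (9.76%, against 9.5% of all genes). These were Optn, with Gabarap at -0.60 ± 0.22 (edgeR adjusted p = 0.463), Bnip3l at -0.59 ± 0.22 (edgeR adjusted p = 0.475) and Vps11 at -0.44 ± 0.18 (edgeR adjusted p = 0.493). DESeq2 and limma-voom called none of the 41. Of all 14225 genes DESeq2 called 22 with a higher and 8 with a lower interaction value, and limma-voom called 0.

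The spread of the members within groups was smaller than that of most genes. Their median within-group SD was 0.223 on the log2 scale, against 0.355 for all genes, and 9 of the 41 members had an SD above 0.355. The genes were not matched for level of expression, so members are not set here against genes of like level. Vps11 (0.0729) and Vps18 (0.0811) were the steadiest and Ctsl (0.706) the most variable. Ctsl measured 194, 62.0 and 119 CPM in set 2 restriction libraries and 57.3, 206 and 155 CPM in set 2 controls, and 117, 58.5 and 70.0 CPM and 66.9, 107 and 88.1 CPM in set 1 restriction and control libraries. High and low libraries stood in each diet of each set. Control 23 was below the mean of its set in all 6 initiation genes, with a median deviation of -0.55 on the log2 scale, where the medians of the other libraries ran from -0.0994 to 0.169.

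**Figure D5:**
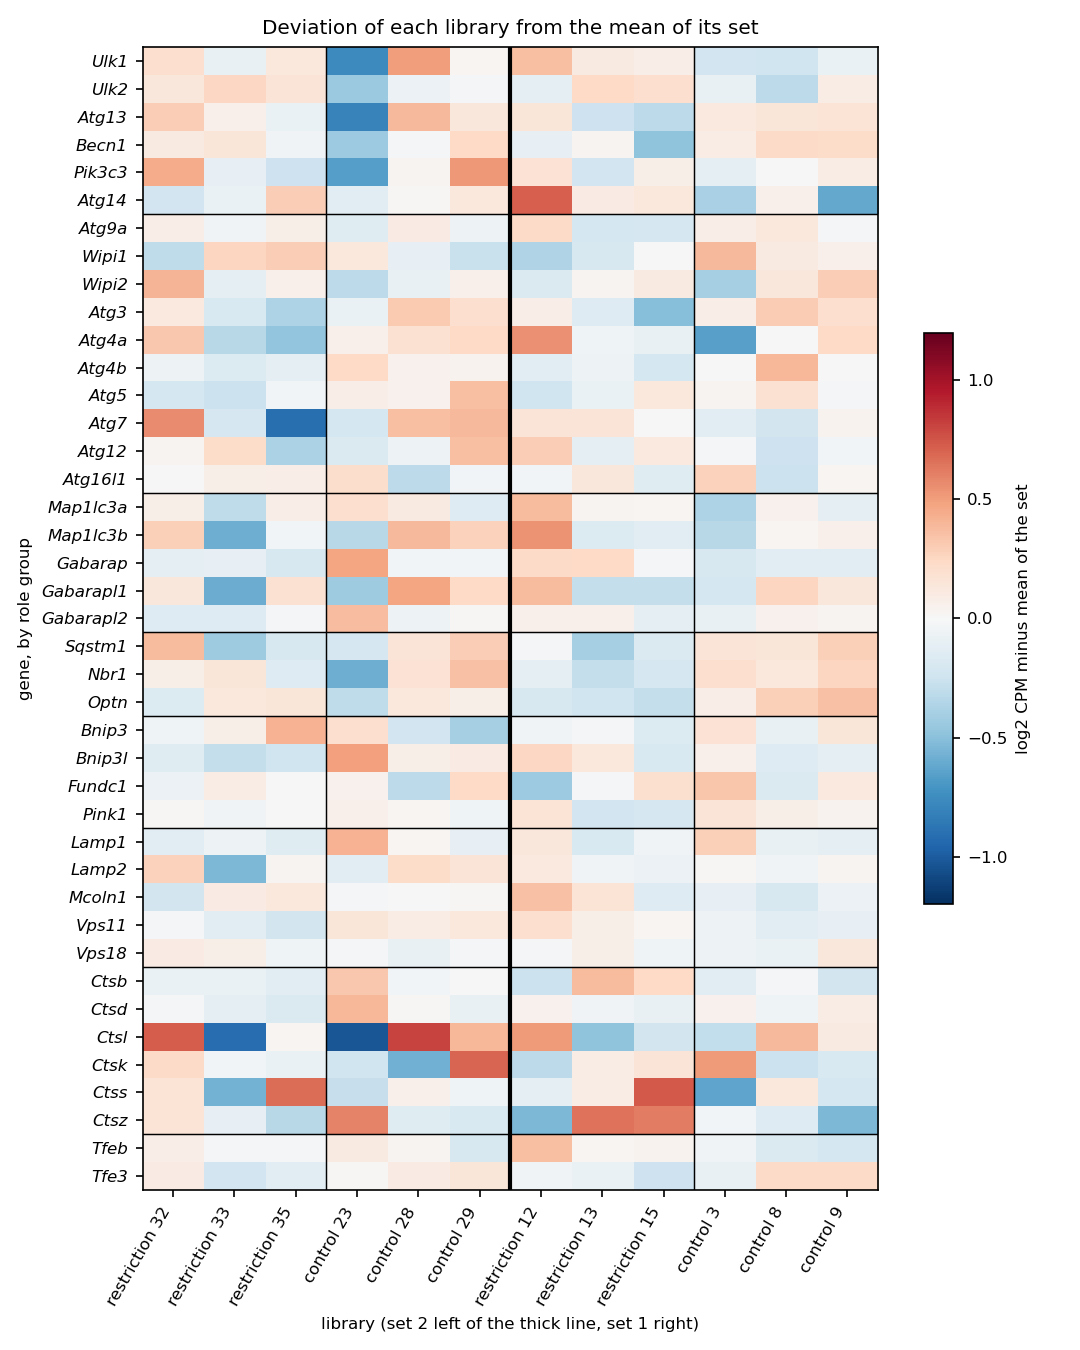
Log2 CPM of each of the 41 genes (rows, by role group) in each library (columns, set 2 left of the thick line and set 1 right, restriction left of control), minus the mean of its set. Red is above and blue below that mean; Ctsl shows the strongest colours, and control 23 is blue in all 6 initiation genes.

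The wider pathway was read from 6 further gene lists, whose counts stand beside 19.9% of all genes higher and 19.6% lower in set 2, or 2102 and 3384 of 14225 genes with library size alone as scaling. Of 28 tested genes of the autophagy machinery 10 were higher and 3 lower in set 2, or 6 and 6 with library size alone. Atg101 and Rb1cc1, the other subunits of the ULK complex, were higher by 1.13 ± 0.09 and 1.03 ± 0.15 on the log2 scale. So were Atg2a, a lipid transfer protein (0.96 ± 0.11), and Snap29, a fusion SNARE (0.77 ± 0.11). Lower were Vamp8, the SNARE on the lysosome (-0.69 ± 0.15), Atg4c (-0.48 ± 0.16) and Pik3r4 (-0.63 ± 0.24). Of 9 further receptors 1 was higher (Tax1bp1, 0.36 ± 0.13) and 1 lower (Phb2, -0.68 ± 0.13), or 0 and 2 with library size alone.

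Among 35 lysosomal hydrolases and lumenal proteins 11 were higher and 7 lower, or 6 and 8 with library size alone. Psap, the precursor of the saposins, averaged 1180 ± 93.4 CPM in set 2 and 626 ± 45.1 CPM in set 1 (SD, 6 libraries each; log2 0.92 ± 0.10 SE). Lipa (0.81 ± 0.12), the acid lipase, and Gaa (0.53 ± 0.10), the acid glucosidase that breaks down glycogen, were also higher. Ctsh, another cysteine cathepsin, averaged 23.9 ± 4.99 CPM in set 2 and 75.9 ± 5.93 CPM in set 1 (-1.67 ± 0.13), and Arsa (-0.76 ± 0.10), Fuca1 (-0.67 ± 0.15) and Gm2a (-0.97 ± 0.22) were lower too. Of 16 membrane and sorting genes 4 were higher and 2 lower, or 4 and 4 with library size alone. Sort1, a sorting receptor, averaged 120 ± 31.5 CPM in set 2 and 21.7 ± 3.65 CPM in set 1 (2.45 ± 0.17). Scarb2 (1.48 ± 0.23), Npc1 (1.09 ± 0.21) and Tpcn1 (0.45 ± 0.13) were higher, and Laptm5, a leukocyte protein (-1.35 ± 0.22), and Cd63 (-0.55 ± 0.10) lower.

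Of 16 V-ATPase subunits, which acidify the lysosome, 1 was higher (Atp6v0a2, 0.87 ± 0.32) and 2 lower (Atp6v0e1, -1.16 ± 0.12, and Atp6v0a1, -0.47 ± 0.10), or 0 and 5 with library size alone. Of 29 genes of mTORC1 and TFEB control 8 were higher and 3 lower, or 7 and 6 with library size alone. Rragd, which encodes a Rag GTPase through which mTORC1 is brought to the lysosome, averaged 49.5 ± 11.1 CPM in set 2 and 14.6 ± 2.87 CPM in set 1 (1.75 ± 0.16). Foxo1, a forkhead activator of muscle autophagy genes, averaged 17.3 ± 10.5 CPM in set 2 and 3.13 ± 1.85 CPM in set 1 (2.55 ± 0.51), and Foxo4 (0.76 ± 0.12) and Mtor (0.57 ± 0.12) were higher too. Lower were Lamtor3 (-0.32 ± 0.11), Lamtor1 (-0.34 ± 0.11) and Tfec, a relative of TFEB with 0.098 ± 0.113 CPM in set 2 and 0.814 ± 0.528 CPM in set 1 (-2.83 ± 0.83, and -4.89 without control 29). The calls of Atg4c, Pik3r4, Tax1bp1, Atp6v0a2, Lamtor3 and Lamtor1 were lost in at least 6 of 12 fits that left out 1 library. No gene of these lists passed a diet comparison in edgeR.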

How the data were processed

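Muscle RNA was isolated with Trizol and sequenced from TruSeq RNA libraries, per the labels' protocols. This kit keeps no strand information, so overlapping antisense transcripts are counted together with a gene. The submitters' processing notes list Trimmomatic, HISAT2, featureCounts, DESeq2 and the build Rnor_6.0. Neither their versions nor the annotation used for counting are stated there. The authors deposited raw counts per gene, 24648 rows for 12 libraries, with totals from 22829692 to 38313704. A table of counts divided by 1 constant per library was not used. Libraries of a group differed beyond sampling noise (chi-square divided by its degrees of freedom, 24.5 to 147).

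From the counts, filterByExpr kept 14225 genes. edgeR 4.0.16 (R 4.3.3) with TMM scaling fitted 4 group means over 12 libraries by the quasi-likelihood method. P-values were adjusted after Benjamini and Hochberg over all tested genes, at a threshold of 0.05. SE is the absolute log2 fold change divided by the square root of F. CPM values are TMM-scaled. Alternatives were DESeq2 1.42.0, limma-voom (limma 3.58.1), other scalings and filters, only the libraries compared, a replicate block and leaving out each library. The fit was checked on simulated counts with changes of at least 2-fold, so the recovery of smaller differences was not checked. Members and lists were chosen with earlier results of these data known. Values are given in full for called members (up to 8 a direction by size, and the smallest p of each role group), for the 3 members of smallest p per direction in each diet comparison, and for up to 4 called genes per direction of each further list, of which 1 is not reported here. The means over sets and the comparisons within a diet use the same libraries. Of the listed genes, 6 had no row.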

Additional observations from a re-analysis of the deposited data

Results flagged for a closer look

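Gabarap and Vps11 had diet differences of opposite sign in the sets, with every restriction library above every control in set 1 and below every control in set 2. For Gabarap, whose protein acts late in autophagosome closure, the difference was -0.29 in set 2 and 0.30 in set 1 on the log2 scale, and the interaction was -0.596 (SE 0.223, edgeR adjusted p = 0.463). It rested in part on control 23, at 233 CPM against 163 and 164 CPM in the other set 2 controls, and was -0.404 without it. For Vps11, a subunit of the lysosomal tethering complexes, the difference was -0.24 in set 2 and 0.19 in set 1, and the interaction was -0.435 (SE 0.178, edgeR adjusted p = 0.493), with a range from -0.494 to -0.379 when 1 library was left out. Neither passed over all genes. This pattern was found in 2 of 41 members (4.88%) and in 1.42% of all genes tested.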

How the results depend on the processing

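Set 2 against set 1 averaged over both diets gave 10 to 15 members higher and 5 or 6 lower when 1 library was left out, and 8 to 14 higher and 5 or 6 lower under the other alternatives. Over all genes the counts moved too, from 2501 to 3159 higher and from 2366 to 3291 lower when 1 library was left out. Under the other alternatives they ran from 2102 to 3016 higher and from 2628 to 3384 lower. The number of genes tested differed between these fits. Among controls the count of members higher, 8, was 2 with library size alone and 3 with only the libraries of the groups compared, and ran from 3 to 9 when 1 library was left out, while the count lower, 3, was 5 with library size alone and ran from 2 to 4. Over all genes the count higher among controls, 1478 of 14225, was 906 with library size alone. It was 923 of 13382 with only the libraries of the groups compared. Among restriction libraries the counts, 7 and 6, ran from 5 to 9 and from 4 to 6. Over all genes the counts among restriction libraries ran from 1511 to 2524 higher and from 1439 to 2636 lower, against 2130 and 2138. Over both diets some members that missed the threshold were called in single fits. Without control 23 these included Pik3c3, Ctsl and Bnip3l, and Ctsl was called without restriction 33 too. A replicate block in edgeR called Atg4a and Ctsl, and library size alone called Bnip3l. The cause of these moves was not tested. In the diet comparisons and the interaction 0 members were called under every alternative run. No called gene changed sign in any, but some values that did not pass did. With library size alone, the set 2 against set 1 value over both diets was -0.0028 for Atg5, -0.0545 for Fundc1, -0.0375 for Pink1, -0.0221 for Lamp2, -0.0566 for Vps11 and -0.00933 for Ctsz, and among controls -0.0185 for Optn and -0.147 for Bnip3l. When 1 library was left out, Fundc1 ran from -0.0146 to 0.154 and Ctsz from -0.0252 to 0.24 over both diets, and Bnip3l from -0.132 to 0.106 among controls. The diet value in set 2 then ran from -0.0598 to 0.153 for Optn, from -0.238 to 0.183 for Nbr1 and from -0.4 to 0.0233 for Sqstm1. For Nbr1 it was 0.00363 by DESeq2, 0.0272 by limma-voom, 0.00395 with DESeq2 size factors, 0.0631 with library size alone and 0.0274 with the replicate block in limma-voom. With library size alone the whole table split into 2102 genes higher and 3384 lower in set 2, against 2832 and 2788. Title numbers n and n + 20 share their last digit, but the labels do not say that they pair the libraries. Their deviations from group means correlated at 0.0791 to 0.175, and in 5 of 6 cases a set 1 library correlated best with its own number (6 of 6 within its diet), a hint from the data and not the design. With these numbers as a replicate block, edgeR called 14 members higher and 5 lower over both diets, 9 and 4 among controls and 8 and 6 among restriction libraries. Over all 14225 genes the same fit called 2906 higher and 2896 lower over both diets. It called 1561 and 1586 among controls and 2274 and 2248 among restriction libraries. With the block, limma-voom (consensus correlation 0.133) called 0 members for diet. With 3 libraries a group, and a median SE near 0.18 in each set, small diet differences could not be resolved.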

Other observations

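Ctsl, the member with the widest spread, had its 3 highest values in restriction 12, control 8 and control 9 of set 1, and in restriction 32, control 28 and control 29 of set 2. Map1lc3b, Atg13, Atg4a and Tfe3 had the same 3 highest libraries in both sets, so that 5 of 41 members (12.2%) did, Ctsl included, beside 1.99% of all genes tested. Of 3 genes outside the members that were looked up, Pdk4, a kinase that restrains glucose oxidation, had them too, while the muscle ubiquitin ligases Fbxo32 and Trim63 did not share them in both sets. Fbxo32 had its highest values of set 1 in control 3, restriction 12 and restriction 15, and Trim63 in control 8, restriction 12 and restriction 15 of set 1 and in controls 28 and 29 and restriction 35 of set 2. Pdk4 measured 718 CPM in restriction 32 and 642 and 945 CPM in controls 28 and 29, against 55.2, 311 and 6.06 CPM in restriction 33, restriction 35 and control 23. In set 1 Pdk4 measured 88.3 CPM in restriction 12 and 165 and 381 CPM in controls 8 and 9, against 28.8, 74.1 and 41.3 CPM in restriction 13, restriction 15 and control 3. This pattern and these genes were chosen after their values were seen, these libraries belong to both diets, and no test was made.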
